A study of Hipposideros armiger and Mus musculus with 20 samples.

Results

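Intra-abdominal white fat (aWAT) was compared with subcutaneous white fat (sWAT) of the great roundleaf bat, Hipposideros armiger, in animals kept at 30 °C. The 4 libraries, 2 of each depot, were taken by their labels from a series of 20 RNA sequencing libraries of bat and mouse fat. Each depot was represented by 1 female and 1 male wild type bat held at 30 °C for 7 days. The same depots of bats held at 10 °C for 7 days, and bat interscapular brown fat (iBAT), entered the filter and the fitted spread. They are also used below to place the genes of this comparison and to test whether the depot difference changed with temperature. The labels give no animal numbers, so whether the aWAT and sWAT of one sex came from the same bat is not known, and p-values measure only the spread between these libraries. Expression was given in FPKM, fragments scaled to transcript length and library size, under mouse gene identifiers. How bat reads were assigned to those identifiers is not given in the sources used here.

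Fat inside the abdomen and fat under the skin descend from different embryonic mesenchyme. Depots keep that origin as patterns of developmental transcription factors such as the Hox and T-box genes. Abdominal depots are also wrapped in mesothelium, the flat epithelium that lines the body cavity, whose cells express uroplakins, mesothelin and Wt1, whereas subcutaneous fat lies in a collagen-rich connective tissue. White fat cells of both kinds store triglyceride and secrete adiponectin and leptin, while brown fat burns lipid for heat through Ucp1.

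All 4 libraries carried the defining genes of fat cells at high levels. Adiponectin (Adipoq), the fat cell hormone, was at 827 and 1241 FPKM in the female and male aWAT and at 901 and 1279 FPKM in the female and male sWAT, and pairs of values below keep this order. Perilipin 1 (Plin1), the coat protein of the lipid droplet, was at 990.1 and 1226 FPKM in aWAT and 763 and 1256 FPKM in sWAT, and Pparg, the master regulator of fat cells, at 219 and 217 FPKM and 169.9 and 187 FPKM. Adipoq and Plin1 overlapped between the depots, and none of the 3 passed the test (differences −0.08 ± 0.35, 0.17 ± 0.26 and 0.29 ± 0.17 on the log2 scale, adjusted p = 0.984, 0.936 and 0.754). Ucp1 was low in both, at 3.18 and 2.67 FPKM in aWAT and 0.410 and 0.570 FPKM in sWAT, against 2886 and 2669.8 FPKM in iBAT. The summed FPKM of the 4 libraries ran from 302612 to 316473 and their depth, read from low values, from 0.948 to 1 relative to the female sWAT library. Pearson's r across genes, which are not independent replicates, was 0.961 and 0.962 between the sexes of a depot and 0.964 and 0.966 between the depots of a sex. Libraries of one sex were thus as alike across depots as libraries of one depot were across sexes.

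limma, fitted to log2(FPKM + 1) of all 12 bat libraries, called 98 of 11025 genes at an adjusted p under 0.05 (0.889%), of which 73 were higher in aWAT (0.662%) and 25 lower (0.227%). In all 98 both aWAT libraries lay beyond both sWAT libraries, and the difference had the same sign in females and males. Over all genes tested, both aWAT libraries lay above both sWAT libraries in 25.3% and below them in 11.4%, and the median difference was 0.08. Median-ratio scaling, which put that median at −0.01, called 60 genes higher and 30 lower. After quantile normalization the calls were 62 and 42, so that the share of calls that were higher went from 74.5% to 66.7% and 59.6%. Every library of the 4 weighed on the count: 34 genes were called without the female aWAT library, 60 without the male, 50 without the female sWAT library and 29 without the male. Differences below are aWAT minus sWAT in log2(FPKM + 1), ± the standard error, over 2 libraries in each depot. This scale understates differences of genes at low FPKM.

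**Figure D1:**
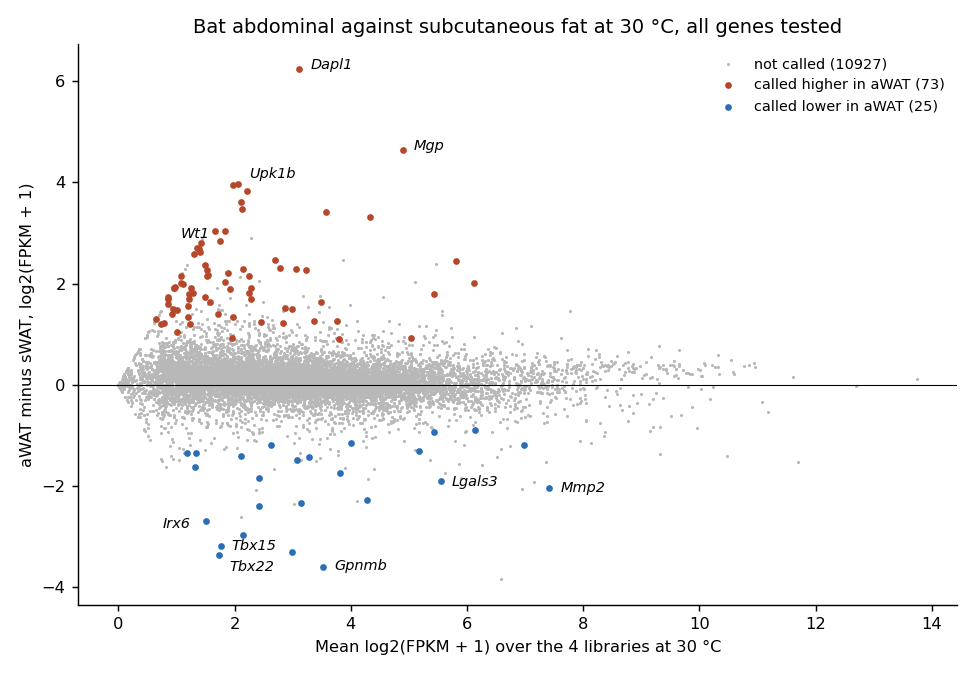
Difference between aWAT and sWAT at 30 °C in log2(FPKM + 1) (y axis) against the mean log2(FPKM + 1) of the 4 libraries (x axis), 1 point per gene tested. Red points are the 73 genes called higher and blue points the 25 called lower in aWAT. The widest differences are those of Dapl1 and Mgp, and most called genes are at low to middle levels.

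The largest difference was that of Dapl1, a small protein related to a death-associated protein and known from differentiating epithelia. It was at 69.8 and 78.8 FPKM in aWAT and listed at 0 in both sWAT libraries (6.23 ± 0.65, adjusted p = 0.0016), and it was also listed at 0 in both iBAT libraries. Mgp, matrix Gla protein, an extracellular inhibitor of calcification, followed with 140.2 and 157 FPKM against 4.81 and 5.14 FPKM (4.64 ± 0.46, adjusted p = 0.00142), a ratio of mean FPKM of 29.9. Mgp was also the most abundant of the 12 named genes with the largest positive differences, and no sWAT value came near those of aWAT. Ptgis, prostacyclin synthase, which makes a vasodilating prostanoid, was at 11.6 and 15.8 FPKM against 0.616 and 0.0496 FPKM (3.48 ± 0.37, adjusted p = 0.0016). Lztfl1, a regulator of protein traffic to cilia, was at 12.7 and 15.8 FPKM against 0.324 and 0.169 FPKM (3.61 ± 0.42, adjusted p = 0.00332). Sbspon, a secreted protein with somatomedin B and thrombospondin domains, was at 7.66 and 8.50 FPKM against 0.0996 and 0.104 FPKM (3.04 ± 0.28, adjusted p = 0.00102). In each of these 5 genes every aWAT value lay far above both sWAT values, and each call held without any 1 of the 4 libraries. Alox12e, an epidermal lipoxygenase in the mouse, was at 79.8 and 49 FPKM against 11.2 and 2.38 FPKM (3.31 ± 0.54, adjusted p = 0.0214). Its call was lost without either aWAT library or the male sWAT library (adjusted p up to 0.198). No bat RefSeq gene carries this symbol and lipoxygenases are a family of relatives, so which bat gene its reads came from is uncertain.

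**Figure D2:**
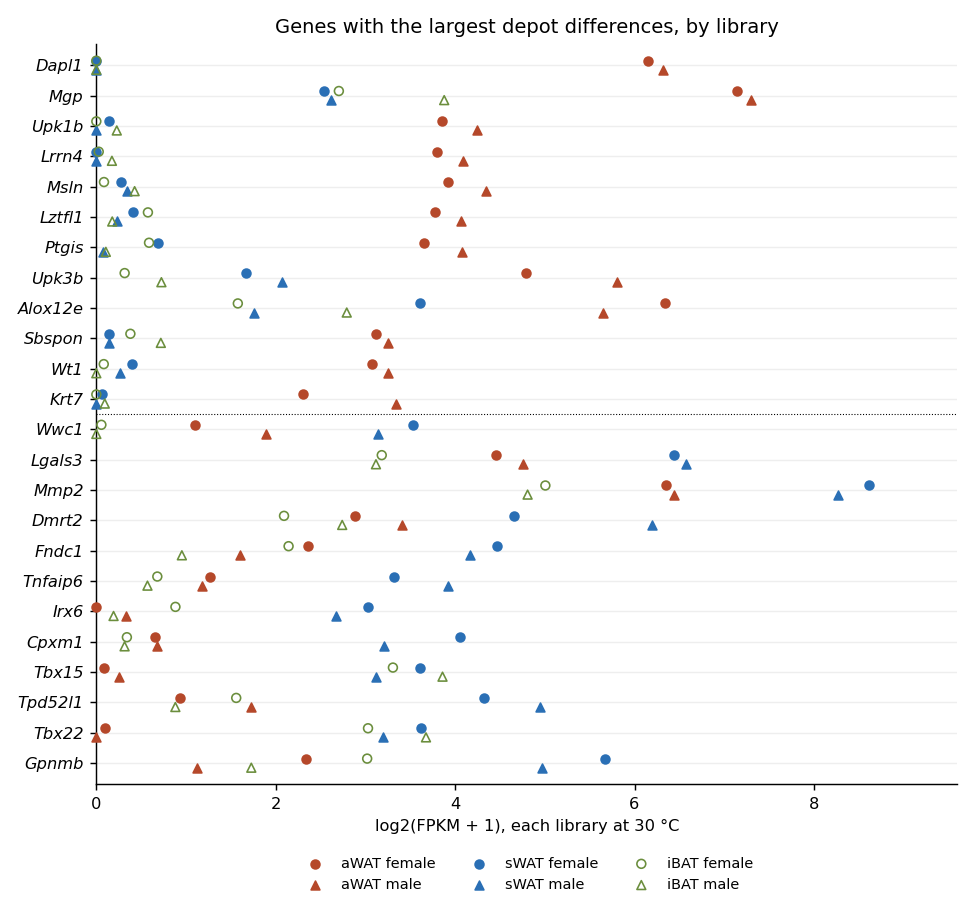
Expression in log2(FPKM + 1) (x axis) of the 12 genes most above and the 12 most below 0 among named called genes (y axis), in each library at 30 °C, with aWAT in red, sWAT in blue, iBAT in open green, circles for females and triangles for males. Above the dotted line every aWAT point lies to the right of the sWAT points. Below it every aWAT point lies to the left, and iBAT sits with sWAT for Tbx15 and Tbx22.

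Mesothelial genes had the largest median difference of the lists with at least 8 tested genes. Of 15 tested genes of the mesothelium list 8 were called higher (53.3%, beside 0.662% of all genes) and none lower. In 11 both aWAT libraries lay above both sWAT libraries (73.3%, beside 25.3%). The median difference was 2.64 beside 0.08 for all genes. The 18 listed genes in the table summed to 251 and 230 FPKM in aWAT and 70.8 and 77.4 FPKM in sWAT. Upk1b, a uroplakin of the apical membrane, was at 13.4 and 17.9 FPKM against 0.105 and 0 FPKM (3.97 ± 0.42, adjusted p = 0.0016). Upk3b, a uroplakin of a separate family and a mesothelial marker, was at 26.6 and 54.7 FPKM against 2.18 and 3.20 FPKM (3.42 ± 0.51, adjusted p = 0.014), the highest level of the 8 called genes. Mesothelin (Msln), the surface protein that gave the cell type a marker, was at 14.1 and 19.3 FPKM against 0.211 and 0.263 FPKM (3.83 ± 0.54, adjusted p = 0.0103). The subcutaneous libraries were thus near 0 for Upk1b and Msln and not for Upk3b. Lrrn4, a leucine-rich membrane protein of mesothelial cells, was at 12.9 and 16 FPKM and listed at 0 in both sWAT libraries (3.94 ± 0.43, adjusted p = 0.0021). Wt1, the zinc finger factor of the developing coelomic lining, was at 7.43 and 8.54 FPKM against 0.312 and 0.204 FPKM (2.83 ± 0.20), with an adjusted p = 0.000595. Bnc1, basonuclin, a zinc finger protein of epithelia, was at 5.27 and 5.83 FPKM and listed at 0 in sWAT (2.71 ± 0.26, adjusted p = 0.00126), and Crb2, a polarity protein, was at 4.96 and 5.15 FPKM against 0 and 0.0120 FPKM (2.59 ± 0.23, adjusted p = 0.00102). Krt7, a keratin of simple epithelia, was at 3.95 and 9.10 FPKM against 0.0420 and 0 FPKM (2.79 ± 0.51, adjusted p = 0.0379). Rspo1, a secreted amplifier of Wnt signals, was at 5.85 and 5.37 FPKM against 0.130 and 0 FPKM and just missed the test (2.64 ± 0.52, adjusted p = 0.0506). The calls of Upk1b, Lrrn4, Wt1, Bnc1 and Crb2 held without any 1 of the 4 libraries. The call of Upk3b was lost without the male aWAT library or either sWAT library (adjusted p up to 0.0964), and those of Msln and Krt7 whichever of the 4 was left out (adjusted p up to 0.0852 and 0.219). Fewer cells of a type and less RNA per cell cannot be told apart in bulk samples, here or for any list below, and the part of mesothelial cells in the other differences was not tested.

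Genes that encode positional and developmental transcription factors went both ways. Of 65 tested, 6 were called higher and 5 lower in aWAT (9.23% and 7.69%, beside 0.662% and 0.227% of all genes). Without overlap 24 lay above and 15 below (36.9% and 23.1%, beside 25.3% and 11.4%), and the median was 0.12. The 6 higher ones were Wt1 and Bnc1 of the mesothelial list, Osr1, Gata5, Tcf21 and Hand1. Osr1, a factor of the intermediate mesoderm, was at 20.0 and 19.3 FPKM against 4.14 and 2.51 FPKM (2.28 ± 0.22, adjusted p = 0.00121). Gata5, a zinc finger factor of heart and gut development, was at 3.00 and 3.98 FPKM and listed at 0 in both sWAT libraries (2.16 ± 0.22, adjusted p = 0.00151). Tcf21, a helix-loop-helix factor of visceral mesenchyme and a marker of white fat precursors, was at 3.81 and 1.98 FPKM and listed at 0 in sWAT (1.92 ± 0.25, adjusted p = 0.0059). Hand1, a helix-loop-helix factor of lateral mesoderm, was at 1.65 and 3.13 FPKM and also listed at 0 in sWAT (1.73 ± 0.22, adjusted p = 0.00618). Bnc1, Gata5, Tcf21 and Hand1 were listed at 0 in both iBAT libraries as well, so that at 30 °C they were listed above 0 in aWAT alone. Without the male sWAT library Tcf21 and Hand1 were no longer called (adjusted p = 0.0598 and 0.0614), and the filter on low values left Hand1 out when an aWAT library was removed.

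The 5 factors lower in aWAT were Tbx15, Irx6, Dmrt2, Shox2 and Hoxc10. Tbx15, a T-box factor of skin, skeleton and subcutaneous and brown fat, was at 0.0607 and 0.190 FPKM in aWAT and 11.2 and 7.70 FPKM in sWAT (−3.19 ± 0.27, adjusted p = 0.00102), and iBAT, at 8.89 and 13.5 FPKM, was as high as sWAT. Tbx22, a relative known from palate development and on no list, had nearly the same pattern, with 0.0684 and 0 FPKM against 11.3 and 8.18 FPKM (−3.36 ± 0.29, adjusted p = 0.00102) and 7.16 and 11.8 FPKM in iBAT. Both were near 0 in aWAT and in neither other bat depot at 30 °C. Irx6, an Iroquois homeobox factor, was at 0 and 0.255 FPKM against 7.14 and 5.37 FPKM (−2.68 ± 0.27, adjusted p = 0.00143), and at 0.843 and 0.142 FPKM in iBAT. Dmrt2, a DM domain factor of the somites, was at 6.36 and 9.59 FPKM against 24.2 and 72.1 FPKM (−2.28 ± 0.43, adjusted p = 0.0446), and Shox2, a homeobox factor of limbs and heart, at 0.511 and 0.326 FPKM against 2.67 and 2.58 FPKM (−1.36 ± 0.23, adjusted p = 0.0245). For Irx6, Dmrt2 and Shox2 it was sWAT that stood above both other depots. The calls of Tbx15, Tbx22 and Irx6 held without any 1 of the 4 libraries, that of Dmrt2 did so only without the female sWAT library, and that of Shox2 in none of these fits (adjusted p up to 0.342 and 0.162).

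Relatives that share sequence could exchange reads, so the mouse transcripts of some called genes and of a relative of each, called or not, were compared. Bat transcripts were not analysed here. Tbx15 and Tbx22 share no identical stretch longer than 17 bases between their longest coding mouse transcripts in GENCODE vM21. Irx6 and Irx3 share 88 identical bases, in the coding part of exon 4 of 6 of mouse Irx6 (build GRCm38, chr8:92677342-92677429, plus strand), printed here because mouse reads within it would match both genes. Whether the bat genes share it is not known here.
Irx6 and Irx3, mouse: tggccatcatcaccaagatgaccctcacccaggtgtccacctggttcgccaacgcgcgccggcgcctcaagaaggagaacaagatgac
In these libraries Irx3 was lower than Irx6 in sWAT and differed less between depots, at 0.557 and 1.34 FPKM in aWAT and 1.29 and 2.30 FPKM in sWAT (−0.52 ± 0.28, adjusted p = 0.723). Krt7 and Krt72, a hair follicle keratin in the mouse that was also called higher in aWAT (3.68 and 2.89 FPKM against 0.0360 and 0.0753 FPKM, 2.01 ± 0.24, adjusted p = 0.00332), share at most 19 identical bases. Hoxc10 and Hoxa10 share at most 17.

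Hox genes give cells an address along the body axis. Of 25 tested Hox genes 1 was called, beside 0.662% of all genes called higher and 0.227% lower. It was Hoxc10, lower in aWAT, at 3.54 and 4.54 FPKM in aWAT and 11.9 and 14.4 FPKM in sWAT (−1.49 ± 0.26, adjusted p = 0.0315). The call was lost whichever of the 4 libraries was left out (adjusted p up to 0.277). Its neighbours Hoxc9, at 2.38 and 2.41 FPKM against 4.73 and 4.60 FPKM (−0.74 ± 0.17, adjusted p = 0.105), and Hoxc11, at 0.649 and 0.753 FPKM against 2.74 and 1.90 FPKM (−0.96 ± 0.20, adjusted p = 0.0628), lay below sWAT in both sexes without passing. Hoxc9, Hoxc10 and Hoxc11 were listed at 0 in both iBAT libraries. Hoxa5 had the opposite sign, at 15.9 and 19.3 FPKM in aWAT, 8.79 and 7.59 FPKM in sWAT and 29.2 and 35 FPKM in iBAT (1.01 ± 0.21, adjusted p = 0.0706). For Hoxa5 aWAT therefore lay between sWAT and brown fat. Hoxa13, numbered highest of the Hox genes tested, also lay above sWAT, at 2.26 and 1.08 FPKM against 0.943 and 0.625 FPKM (0.55 ± 0.23, adjusted p = 0.585). Without overlap only genes of the Hoxc cluster lay below sWAT, while genes of every cluster lay above.

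**Figure D3:**
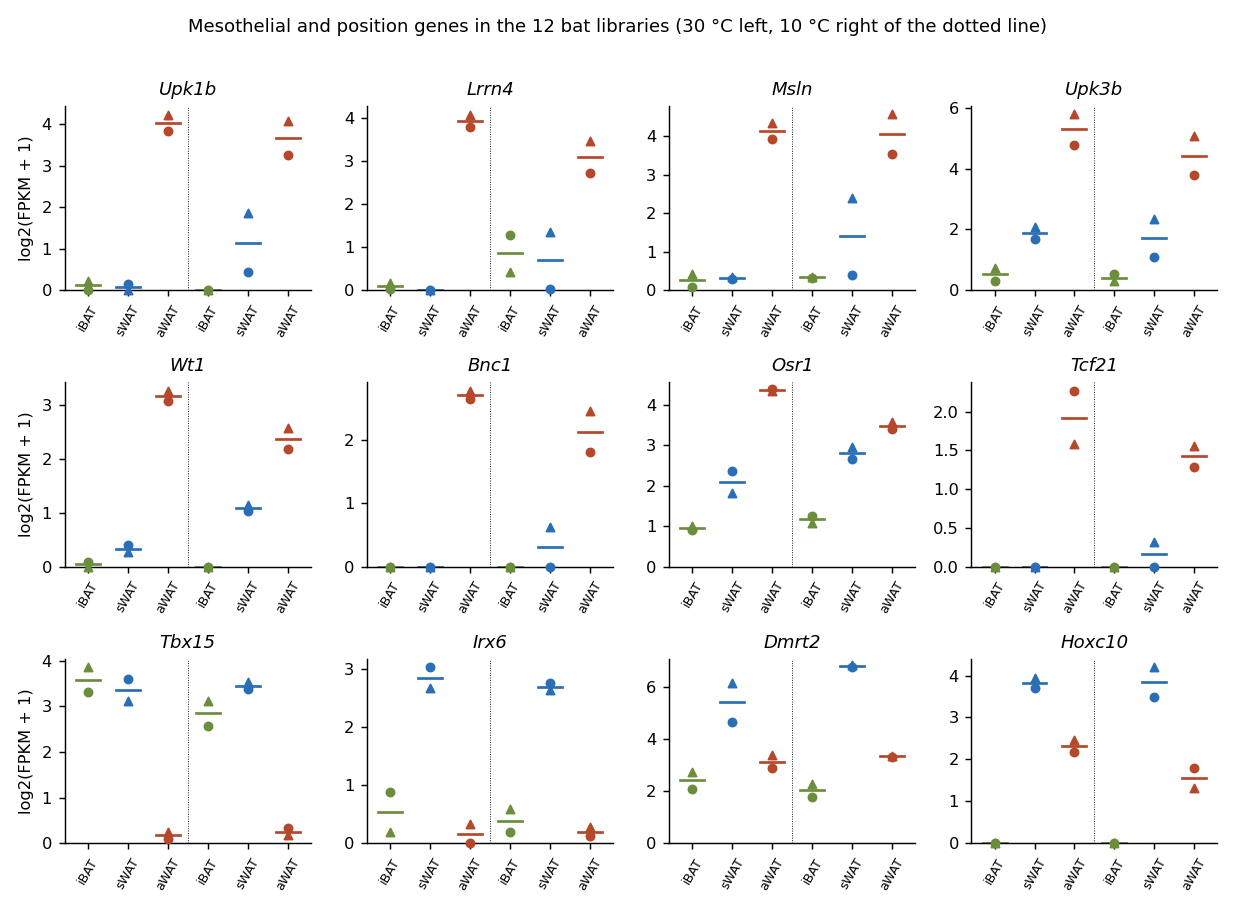
Expression in log2(FPKM + 1) (y axes, each from 0) of 12 called mesothelial and position genes in the 6 bat groups (x axes, brown, subcutaneous and abdominal fat, 30 °C left and 10 °C right of the dotted line), with circles for females, triangles for males and bars for group means. The first 8 genes are highest in aWAT at both temperatures. Tbx15 is near 0 in aWAT alone, and Irx6, Dmrt2 and Hoxc10 are highest in sWAT.

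Beyond the transcription factors, the genes lower in aWAT included 1 each of the macrophage, endothelial and matrix lists. Gpnmb, a glycoprotein of lipid-laden macrophages, had the largest negative difference, at 4.04 and 1.17 FPKM in aWAT and 49.9 and 30.4 FPKM in sWAT (−3.59 ± 0.52, adjusted p = 0.0113). It was the 1 called gene of 19 tested on the macrophage list (5.26%, beside 0.227% of all genes called lower). Without overlap 6 of them lay above sWAT (31.6%, beside 25.3% of all genes) and 1 below (5.26%, beside 11.4%). The list median was 0.25. It was 0.237 in the female pair and 0.087 in the male pair, beside 0.069 and 0.088 for all genes. Csf1r, the receptor on which macrophages depend, was at 54.2 and 42.1 FPKM in aWAT against 35.2 and 32.7 FPKM in sWAT (0.48 ± 0.29, adjusted p = 0.754), and the macrophage list summed to 615 and 367 FPKM in aWAT and 522 and 351 FPKM in sWAT. Lgals3, galectin 3, a lectin secreted by macrophages among other cells, was at 21 and 26 FPKM against 86.1 and 93.9 FPKM (−1.90 ± 0.28, adjusted p = 0.014). Lgals3, on no list, lay below sWAT in both sexes. Tpd52l1, a coiled-coil protein of membrane traffic, was at 0.913 and 2.31 FPKM against 19 and 29.9 FPKM (−3.30 ± 0.33, adjusted p = 0.00143), and Wwc1, the Hippo pathway scaffold KIBRA, at 1.15 and 2.70 FPKM against 10.5 and 7.83 FPKM (−1.84 ± 0.30, adjusted p = 0.0216). Plvap, which forms the diaphragms of fenestrated capillaries, was at 21.5 and 22.3 FPKM against 51.5 and 60.8 FPKM (−1.32 ± 0.18, adjusted p = 0.0103). It was the 1 called gene of 20 on the endothelial list (5%, beside 0.227%). Without overlap 2 of that list lay above sWAT and 3 below (10% and 15%, beside 25.3% and 11.4% of all genes), and its median was −0.08.

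Mmp2, gelatinase A, which degrades basement membrane collagen, was the most abundant gene called lower, at 80.4 and 86.2 FPKM in aWAT and 391 and 307 FPKM in sWAT (−2.04 ± 0.35, adjusted p = 0.027). Cpxm1, a secreted carboxypeptidase relative linked to collagen, was at 0.569 and 0.595 FPKM against 15.6 and 8.26 FPKM (−2.97 ± 0.28, adjusted p = 0.00104), Fndc1, a fibronectin domain protein, at 4.15 and 2.04 FPKM against 21.1 and 17 FPKM (−2.33 ± 0.36, adjusted p = 0.0169), and Tnfaip6, which binds hyaluronan, at 1.41 and 1.26 FPKM against 8.97 and 14.1 FPKM (−2.39 ± 0.39, adjusted p = 0.0194). Of 32 tested genes of collagens and matrix, Mmp2 alone was called (3.125%, beside 0.227% of all genes called lower). Without overlap 12 lay below sWAT (37.5%, beside 11.4%) and 2 above (6.25%, beside 25.3%), and the median was −0.51. Their summed FPKM was 1873 and 2528 in aWAT and 3461 and 4467 in sWAT. The nearest misses were the collagen VI chains Col6a2, at 30.5 and 35.6 FPKM against 72.4 and 136 FPKM (−1.56 ± 0.31, adjusted p = 0.0506), and Col6a1, at 35.4 and 45 FPKM against 76.7 and 110.4 FPKM (−1.18 ± 0.24, adjusted p = 0.0642). Col1a1, a chain of type I collagen, was at 23.7 and 28.1 FPKM against 75.3 and 104 FPKM (−1.74 ± 0.40, adjusted p = 0.106). Of 21 fibroblast and progenitor genes 8 lay below and 2 above without overlap (38.1% and 9.52%, beside 11.4% and 25.3% of all genes). The 1 called (4.76%, beside 0.662%), Dpp4, a marker of interstitial progenitors and of mesothelial cells, was higher in aWAT. It was at 3.45 and 3.72 FPKM against 0.178 and 0.267 FPKM (1.91 ± 0.20, adjusted p = 0.0016). Among the genes of these last 2 groups the calls of Tpd52l1, Cpxm1 and Dpp4 held without any 1 of the 4 libraries. Gpnmb, Fndc1, Lgals3, Wwc1 and Plvap kept theirs in 1 of the 4 such fits and Mmp2 and Tnfaip6 in none, with adjusted p up to 0.0905, 0.116, 0.138, 0.188, 0.104, 0.194 and 0.172.

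Signalling genes stood on several lists with 1 or 2 calls each, beside 0.662% of all genes called higher and 0.227% lower. Of 28 tested Wnt genes 2 were called higher (7.14%) and none lower. Wnt2b, a ligand, was at 4.89 and 7.96 FPKM against 0.916 and 0.635 FPKM (2.04 ± 0.32, adjusted p = 0.0179). Dkk3, a secreted Dickkopf protein, was at 3.66 and 3.45 FPKM against 0.198 and 0.414 FPKM (1.81 ± 0.30, adjusted p = 0.0228). Of 39 BMP and TGF-beta genes 1 was called, Bmp3, a BMP that opposes the others. It was at 2.28 and 2.20 FPKM against 0.127 and 0.178 FPKM (1.49 ± 0.21, adjusted p = 0.0103). Bmp3 reached 1 FPKM in no bat library but the 2 aWAT libraries at 30 °C. It thus passed the filter on low values only through those libraries, and was left out when either was removed. Il33, an alarmin cytokine stored in nuclei of stromal and mesothelial cells, was the 1 call among 22 chemokine and inflammation genes, at 14 and 21.5 FPKM against 2.31 and 3.30 FPKM (2.28 ± 0.37, adjusted p = 0.0205). In each of these 4 genes every aWAT value was at least several times every sWAT value. Retinoid genes split: Rxrg, a nuclear receptor for retinoids, was higher at 153 and 126 FPKM against 56.1 and 20.3 FPKM (2.00 ± 0.39, adjusted p = 0.0493), and Crabp2, which carries retinoic acid to its receptors, was lower at 0.328 and 0.512 FPKM against 3.89 and 2.95 FPKM (−1.63 ± 0.26, adjusted p = 0.0194), out of 25 retinoid and steroid genes. Apoa1, the main protein of high-density lipoprotein, was the 1 called gene of 4 tested on the liver list, at 8.70 and 8.69 FPKM against 1.15 and 0.856 FPKM (2.28 ± 0.32, adjusted p = 0.0103), and that list summed to 10.1 and 10.2 FPKM in aWAT. Slc6a4, the serotonin transporter, was at 5.48 and 5.66 FPKM against 0 and 0.127 FPKM (2.63 ± 0.20, adjusted p = 0.000656), and was called without any 1 of the 4 libraries. The others of this paragraph were not: Wnt2b and Rxrg kept the call in 1 such fit each and the remaining 5 in none. Of these 5, Bmp3 was tested only in the 2 fits that left out an sWAT library (differences 1.46 and 1.52).

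Genes of Schwann cells held a pair of calls at low levels. Of 13 tested nerve and Schwann genes 2 were called higher (15.4%, beside 0.662% of all genes) and none lower. Without overlap 7 lay above (53.8%, beside 25.3%) and none below (beside 11.4%), and the median was 0.55. Cdh19, a cadherin of Schwann cell precursors, was at 2.30 and 1.84 FPKM against 0.242 and 0.101 FPKM (1.39 ± 0.24, adjusted p = 0.0308), and Sox10, the factor that defines the glial lineage, at 1.58 and 1.46 FPKM against 0.0879 and 0.0922 FPKM (1.21 ± 0.23, adjusted p = 0.04997). Gfra3, a receptor of a glial growth factor, was at 6.57 and 5.24 FPKM against 1.64 and 0.662 FPKM (1.72 ± 0.37, adjusted p = 0.0774). Both calls were lost whichever of the 4 libraries was left out (adjusted p up to 0.269 for Cdh19 and 0.336 for Sox10).

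Of 28 tested brown fat and thermogenic genes 2 were called higher in aWAT (7.14%, beside 0.662% of all genes) and none lower. Without overlap 13 lay above (46.4%, beside 25.3%) and 1 below, and the median was 0.34. Ebf2, a factor that marks brown and beige precursors, was at 15.5 and 22.8 FPKM in aWAT, 6.14 and 4.71 FPKM in sWAT and 19.2 and 21.7 FPKM in iBAT (1.63 ± 0.23, adjusted p = 0.0103), so that aWAT was level with brown fat for Ebf2. Ucp1 itself did not pass (1.40 ± 0.35, adjusted p = 0.169, 95% interval 0.61 to 2.18). Ldhb, the lactate dehydrogenase chain of oxidative tissues, was called on the glycolysis list, at 116 and 146 FPKM against 13.4 and 39.2 FPKM and 1735 and 1929 FPKM in iBAT (2.45 ± 0.45, adjusted p = 0.039). Adra1a, an adrenergic receptor, was the 1 called gene of 24 on the adrenergic list, at 2.52 and 2.16 FPKM against 0.371 and 0.0556 FPKM (1.47 ± 0.28, adjusted p = 0.0493). Kcnk16, a potassium leak channel, at 5.97 and 4.90 FPKM against 0.155 and 0.322 FPKM (2.38 ± 0.44, adjusted p = 0.0422), and Crat, carnitine acetyltransferase, at 44.7 and 43.9 FPKM against 23.7 and 21.9 FPKM (0.93 ± 0.18, adjusted p = 0.0495), were higher too. None of these 5 calls held in every fit without 1 of the 4 libraries. Ebf2 kept its call in 2 of 4, Ldhb in 1 and the rest in none (adjusted p up to 0.106 for Ebf2, 0.175 for Ldhb and 0.341 for Adra1a). No gene passed among 38 of the electron transport chain, 20 of the TCA cycle and 22 of fatty acid oxidation. Their medians were 0.36, 0.34 and 0.35, and 16, 7 and 13 of them lay above sWAT in both aWAT libraries with none below. These are 42.1%, 35% and 59.1%, beside 25.3% of all genes. In the female pair the medians were 0.11, 0.24 and 0.26, beside 0.07 for all genes. The male pair had 0.51, 0.44 and 0.54, beside 0.09.

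Genes shared by white and brown fat cells gave no call. None of 20 general fat cell genes was called, with a median of 0.13, and of 13 white fat cell genes tested Tcf21 alone was (7.69%, beside 0.662% of all genes called higher). Leptin (Lep), the satiety hormone, was at 1062 and 3631 FPKM in aWAT and 3674 and 8635 FPKM in sWAT. Males were above females in both depots, the difference did not pass (−1.52 ± 1.19, adjusted p = 0.82), and its 95% interval ran from −4.16 to 1.12. No gene was called among 17 of fatty acid synthesis, 23 of triglyceride synthesis and lipolysis, 17 of cholesterol synthesis and 20 of the cytosolic ribosome. Genes of other cells and tissues a dissection could carry were not all alike. Red cell genes summed to 1576 and 836 FPKM in aWAT and 900 and 881 FPKM in sWAT. B lymphocyte and plasma cell genes summed to 200 and 120 FPKM against 103 and 115 FPKM. T lymphocyte genes summed to 32.2 and 14.3 FPKM against 13.8 and 9.66 FPKM. Interferon response genes summed to 243 and 138 FPKM against 127 and 125 FPKM. The female aWAT library was highest in each of these lists, no gene of them was called, and the cause was not tested. Skeletal muscle genes, of which none of 23 was called, summed to 35.0 and 36.3 FPKM in aWAT and 61.0 and 39.7 FPKM in sWAT, and genes of pancreas and intestine to at most 0.654 FPKM in any of the 4 libraries.

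**Figure D4:**
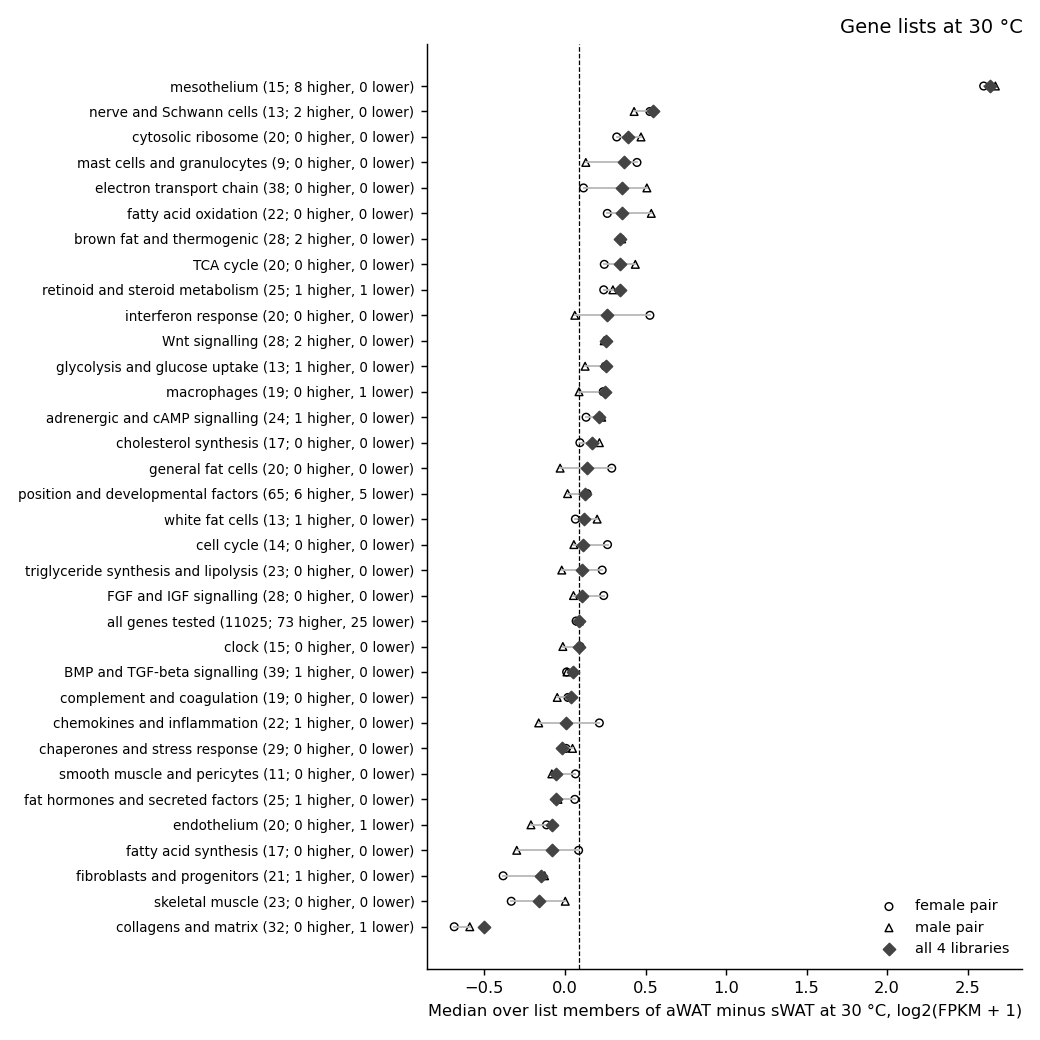
Median difference between aWAT and sWAT at 30 °C in log2(FPKM + 1) (x axis) over the tested genes of each list with at least 8 of them (y axis, with the number tested and called), for all 4 libraries (diamonds), the female pair (circles) and the male pair (triangles). The dashed line is the median of all genes, 0.08. The mesothelium list stands at 2.64 and collagens and matrix at −0.51, on the same side in both sexes.

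The depot difference was then read in the libraries of bats kept at 10 °C, which share no library with those at 30 °C but share the fitted spread. At 10 °C limma called 1146 genes higher (10.4%) and 1270 lower (11.5%) in aWAT. Of the 73 genes called higher at 30 °C 53 were called higher at 10 °C, 70 had a positive difference and 1, Alox12e, was called lower. Of the 25 called lower at 30 °C 24 were called lower at 10 °C and all 25 had a negative difference, Asb5, an ankyrin repeat protein, being the one not called (−0.66 ± 0.22, adjusted p = 0.0615). The medians were 1.91 at 30 °C and 1.12 at 10 °C for the 73 genes and −1.75 and −2.07 for the 25, beside −0.10 for all genes at 10 °C. Because the genes were chosen by their values at 30 °C, these medians do not estimate a change. In sWAT at 10 °C, Upk1b, Upk3b, Msln, Lrrn4, Wt1, Bnc1, Crb2 and Krt7 were all higher in the male library than in the female. Msln was at 4.25 FPKM in the male and 0.319 FPKM in the female, and Upk1b at 2.63 and 0.347 FPKM. Dapl1, at 5.76 and 0 FPKM, did likewise, and Sbspon, at 1.10 and 2.84 FPKM, the reverse. The part of that male library in the 10 °C differences was not tested. Tbx15 stood the same at both temperatures (−3.19 ± 0.27 and −3.20 ± 0.27), with 0.255 and 0.131 FPKM in aWAT and 9.43 and 10.5 FPKM in sWAT at 10 °C.

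Tested gene by gene, the depot difference itself differed between temperatures for 486 genes (4.41%), among them 13 of the 73 and 1 of the 25. It was smaller at 10 °C for 9 of the 13. The 30 °C values that chose the 73 and the 25 also enter this difference. Their counts and directions therefore cannot be set against the share of all genes. Wt1 had 3.51 and 4.93 FPKM in aWAT and 1.03 and 1.19 FPKM in sWAT at 10 °C, nearer to each other than in the warm (change of the difference −1.54 ± 0.28, adjusted p = 0.0164). Sbspon had 2.45 and 2.97 FPKM and 2.84 and 1.10 FPKM (−2.66 ± 0.39, adjusted p = 0.00704), with no depot difference left that passed. Alox12e turned over, at 12.8 and 16.4 FPKM in aWAT and 54.9 and 58.6 FPKM in sWAT (−5.21 ± 0.77, adjusted p = 0.00718). The difference was larger at 10 °C for Ldhb, Kcnk16, Adra1a and Crat. Ldhb reached 1999 and 1121 FPKM in aWAT against 48.7 and 29.8 FPKM in sWAT (2.81 ± 0.63, adjusted p = 0.0399), and Adra1a 23.6 and 16.1 FPKM against 0.584 and 0.246 FPKM (2.40 ± 0.40, adjusted p = 0.0131). Among the lower genes Lgals3 was further apart at 10 °C, at 10.3 and 22.4 FPKM against 187 and 196 FPKM (−1.67 ± 0.40, adjusted p = 0.0477). The 2 sWAT libraries at 10 °C carried skeletal muscle genes at a sum of 877 and 1844 FPKM, against 45.4 and 44.4 FPKM in aWAT at 10 °C, and 22 of the 23 tested muscle genes were called lower in aWAT there. The part of muscle tissue in the 10 °C differences was not tested. A fit of the bat libraries without these 2, added after the data had been seen, called 79 genes at 30 °C, 54 higher and 25 lower.

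**Figure D5:**
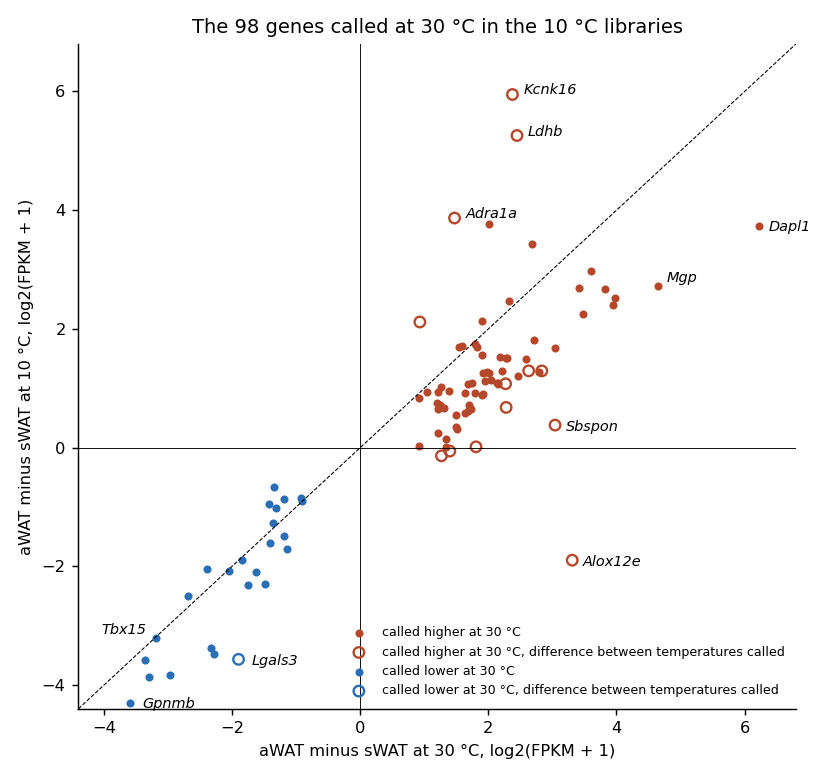
Difference between aWAT and sWAT at 10 °C (y axis) against that at 30 °C (x axis), both in log2(FPKM + 1), for the 98 genes called at 30 °C, red for higher and blue for lower in aWAT. Open circles mark the 14 genes whose difference itself differed between temperatures, and the dashed line marks equal differences. Alox12e is the one gene well across 0, and all 25 blue points stay below 0.

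The called genes were also sorted by which white depot lay nearer to brown fat at 30 °C. For 54 of the 73 the mean of the iBAT libraries in log2(FPKM + 1) was nearer to sWAT than to aWAT, as for Dapl1, Mgp, the 8 mesothelial genes and the 6 developmental factors. For 19 it was nearer to aWAT, among them Ldhb, Kcnk16, Rxrg, Ebf2, Adra1a, Crat, Cdh19 and Sox10. Of the 25 genes lower in aWAT 22 were nearer to aWAT in iBAT, and 3, Tbx15, Tbx22 and Asb5, nearer to sWAT. These are orders of levels, with no test. The same order was not taken over all genes tested, so it does not set the called genes apart.

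The remaining 39 genes called higher had differences from 0.91 to 3.04 and the remaining 8 called lower from −1.75 to −0.90. The former held Ccn3 and Megf6, secreted or surface proteins with growth factor motifs, Itgbl1 and Nell2 of the matrix, the retinol-oxidizing enzyme Adh1, the protease inhibitors Reck and Spint2, the epithelial proteins Baiap2l1, Eps8l2, Cgnl1 and Myo5b, the receptors Erbb2, Il20rb, S1pr5 and Nrp2, and the transglutaminase Tgm2. The latter held Aebp1 and Fkbp10, which act on collagen fibres and their folding, the axon guidance protein Crmp1, the protease Napsa and the epoxide hydrolase Ephx1. Like Bmp3 and Hand1, S1pr5 reached 1 FPKM in no bat library but the 2 aWAT libraries at 30 °C. It was at 3.64 and 1.91 FPKM there, and passed the filter on low values only through them. A bat RefSeq gene of the same symbol exists for 87 of the 98. Of the 73 genes called higher, 38 were under 0.5 FPKM in both sWAT libraries and 9 were listed at 0 there, whereas 3 of the 25 called lower were under 0.5 FPKM in both aWAT libraries. Of the 51 called genes described with values, 20 were called in every fit without 1 of the 4 libraries. Krt72, Crb2, Osr1, Gata5, Hand1, Slc6a4, Kcnk16, Crat, Irx3, Asb5, Hoxa13, Hoxc11, Rspo1, Col6a1, Col6a2, Col1a1, Csf1r and Gfra3, and the genes of this paragraph, were named after their values had been seen.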

How the data were processed

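RNA sequencing of bat aWAT and sWAT at 30 °C (4 libraries) was analysed from the deposited table. The authors deposited FPKM per gene under mouse Ensembl identifiers. CASAVA 1.8 appears in the submitters' processing notes. Which aligner, counter and genome build the authors used is not given in the sources used here. No counts were used, so read totals are unknown. Depths relative to each other were read from low FPKM values, of which 60.8% to 66.3% stood, to within 0.5%, in ratios of small whole numbers (at most 5) once a common depth was set. Symbols were found for 14723 of 14871 identifiers, and bat gene symbols came from the RefSeq table of ASM189008v1.

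Values were taken as log2(FPKM + 1), with a pseudocount of 1. The test covered genes that reached 1 FPKM in 2 or more of the 12 bat libraries. It was made with limma 3.58.1 in R 4.3.3 (group means, no sex term, moderation with trend, two-sided), with Benjamini-Hochberg adjustment over all 11025 genes and a threshold of 0.05. The spread of each group of 2 was taken from all 12 libraries. The script was tested on simulated data. The 41 gene lists, and the genes themselves, were chosen with earlier results of these data known. They were described by counts and medians, with no test of a list.

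The genes named were up to 12 called genes in each direction with the largest difference, a mean of at least 5 FPKM in the higher depot, libraries that did not overlap and a proper symbol. Added to them were core fat genes, up to 4 called members of each list (2 measured members where none was called) and up to 6 genes with the smallest adjusted p for the difference between temperatures. Some were left out to keep the text short, 1 called gene is not reported here, and genes outside the rule are marked as such. Alternatives were the pseudocount, the filter, scaling, the libraries in the fit, moderation, a sex block and the removal of each library.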

Additional observations from a re-analysis of the deposited data

Results flagged for a closer look

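The depot difference, aWAT minus sWAT in log2(FPKM + 1), itself differed between 10 °C and 30 °C for 24 of the genes named, by limma's test of the difference between the depot differences (10 °C minus 30 °C ± standard error, 2 libraries per group). Among genes called higher in aWAT at 30 °C it was larger at 10 °C for Kcnk16 (3.57 ± 0.62, adjusted p = 0.0153), Ldhb (2.81 ± 0.63, adjusted p = 0.0399), Adra1a (2.40 ± 0.40, adjusted p = 0.0131) and Crat (1.19 ± 0.26, adjusted p = 0.0329). It was smaller for Slc6a4 (−1.34 ± 0.28, adjusted p = 0.0305), Wt1 (−1.54 ± 0.28, adjusted p = 0.0164), Osr1 (−1.60 ± 0.31, adjusted p = 0.0222), Dkk3 (−1.79 ± 0.43, adjusted p = 0.0476), Sbspon (−2.66 ± 0.39, adjusted p = 0.00704) and Alox12e (−5.21 ± 0.77, adjusted p = 0.00718). Of those called lower, Lgals3 (−1.67 ± 0.40, adjusted p = 0.0477) was further below sWAT. The called genes were chosen by their 30 °C values, which also enter this difference.

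Several genes of heat production and mitochondria that did not pass at 30 °C were called higher than in sWAT at 10 °C. Ucp1, at 7184 and 2939 FPKM in aWAT and 0.826 and 1.20 FPKM in sWAT at 10 °C, had the largest value (9.77 ± 0.50, adjusted p = 3.01e-05). Cpt1b, which admits fatty acids to mitochondria (2.39 ± 0.32, adjusted p = 0.0043), Acadvl, an acyl-CoA dehydrogenase (1.98 ± 0.33, adjusted p = 0.0131), Sucla2 of the TCA cycle (2.14 ± 0.38, adjusted p = 0.0157) and Sdhb of complex II (1.86 ± 0.43, adjusted p = 0.0419) followed. Plin2, a lipid droplet protein, was not called at either temperature, with differences of −0.93 ± 0.32 at 30 °C and 0.91 ± 0.32 at 10 °C (change 1.84 ± 0.45, adjusted p = 0.0496). The macrophage receptor Csf1r went the other way (−1.66 ± 0.40, adjusted p = 0.0492).

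Of the muscle genes, Tnnc1, Mylpf and Myh8 had values below that of Alox12e. The muscle genes named were the myosins Myh2 (−4.12 ± 0.31, adjusted p = 0.000186), Myh6 (−5.02 ± 0.30, adjusted p = 6.94e-05) and Myh8 (−5.34 ± 0.35, adjusted p = 7.97e-05), the light chain Mylpf (−5.50 ± 0.57, adjusted p = 0.00103), the troponin Tnnc1 (−7.10 ± 0.52, adjusted p = 0.000186) and desmin (Des, −4.14 ± 0.41, adjusted p = 0.00098). Tnnc1 was at 107 and 287 FPKM in sWAT and listed at 0 in both aWAT libraries at 10 °C, against 0.515 and 0.179 FPKM in sWAT at 30 °C. Myosins are close relatives, and reads could have been exchanged among them.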

How the results depend on the processing

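All 98 genes kept their direction under each alternative in which they were still tested, and 76 to 96 remained called under the other pseudocounts, scalings, moderations and no filter. The count fell to 47 (32 higher, 15 lower) with a filter of 5 FPKM, to 50 (37, 13) with the 8 white fat libraries, where 182 genes differed between temperatures, and to 25 (22, 3) with only the 4 libraries compared. Quantile normalization called 42 lower. Leaving out each of the 4 libraries gave 29 to 60 calls (21 to 49 higher, 7 to 15 lower) and 122 to 564 genes that differed between temperatures. Among alternatives chosen after seeing the data, the 6 libraries at 30 °C called 58 (46, 12). Sex as a replicate block called 109 (73, 36) in the 12 libraries and, chosen after seeing the data, 391 (244, 147) in the 4. In the 12 it lost Ldhb, Rxrg, Sox10 and Crat (adjusted p = 0.0546, 0.0612, 0.0609 and 0.0564) among the genes described. Deviations of same-sex libraries at 30 °C correlated at 0.55 between aWAT and sWAT, 0.29 between sWAT and iBAT and 0.31 between aWAT and iBAT, but 2 libraries per depot and the labels do not establish a pairing. The cause was not tested, beyond fewer genes or libraries entering the smaller fits. Over those 4 fits the uncalled genes Adipoq (−0.38 to 0.21), Plin1 (−0.19 to 0.53), Myh2 (−0.21 to 0.000365) and Myh8 (−0.19 to 0.00522) changed sign. With 2 libraries per depot and no read totals, differences of genes below about 1 FPKM and sex within depots could not be resolved.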
